A study of Mus musculus with 12 samples.

Results

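Pecam1, Cdh5, Cldn5, Esam, Icam2 and F11r, 6 genes whose products hold endothelial cells to each other or to blood cells, were followed across 12 arrays of cultured bone marrow stroma. The genes were taken by symbol, and each had 1 probe set in the deposited table, so the set holds 6 of the 1974 genes that the platform annotation names by 1 symbol in the deposited table. Marrow of C57BL/6 mice aged 3 to 4 months was grown in M5300 medium for 2 weeks into an adherent layer, which received 1500 cGy of radiation and new medium. There were 4 arrays each of wild-type, Crebbp+/- and Ep300+/- stroma, given as biological replicates in the labels. Irradiation, strain and culture were shared by all 3 genotypes. Each heterozygote carries 1 altered copy of a gene for a transcriptional coactivator with histone acetyltransferase activity, and the labels describe neither the allele nor the sex of the mice. The 6 genes were selected on their genotype differences in these same arrays, so their levels and fold changes are a description. Counts of how many passed the threshold of the fit over all probe sets are printed for them too, but they rest on the values that selected the genes and are no independent evidence of a difference. The stroma is an unsorted adherent layer. The p-values below set a difference of genotype means against the spread between cultures within genotypes, estimated over all 3 genotypes.

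Endothelial cells line blood vessels, and in marrow they form the sinusoids through which blood cells leave for the circulation. Their contacts combine adherens junctions, built on the cadherin encoded by Cdh5, with tight junctions, in which claudins seal the space between cells. Immunoglobulin-type adhesion molecules, among them the products of Pecam1, Esam, Icam2 and F11r, sit at or near the same contacts and guide the passage of leukocytes. Several are not particular to endothelium: Pecam1 and Icam2 are also found on platelets and leukocytes, Esam on platelets, and F11r on platelets, leukocytes and epithelium.

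Promoter sequences show which short motifs lie near the starts of genes that move together here, and the RefSeq promoter table (build GRCm38.p6) held 2 of the 6 genes, Cldn5 and F11r. Pecam1, Cdh5, Esam and Icam2 have no entry. Each sequence runs 5′ to 3′ on the plus strand, which is the strand of both genes, from 250 bases before the annotated start to 50 bases from it. The Cldn5 window is chr16:18776597-18776896 and the F11r window is chr1:171437311-171437610. Capitals mark every match, on either strand, to the motifs found in them: CCAAT (the CCAAT box), GGGCGG (the GC box of Sp and KLF factors) and GGAAG (the core bound by ETS factors).
Cldn5: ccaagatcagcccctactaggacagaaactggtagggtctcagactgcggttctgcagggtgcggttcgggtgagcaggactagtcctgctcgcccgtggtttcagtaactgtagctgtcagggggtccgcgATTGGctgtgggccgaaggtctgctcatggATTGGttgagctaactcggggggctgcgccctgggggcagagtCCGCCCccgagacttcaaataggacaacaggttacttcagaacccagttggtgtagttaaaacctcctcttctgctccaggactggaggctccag
F11r: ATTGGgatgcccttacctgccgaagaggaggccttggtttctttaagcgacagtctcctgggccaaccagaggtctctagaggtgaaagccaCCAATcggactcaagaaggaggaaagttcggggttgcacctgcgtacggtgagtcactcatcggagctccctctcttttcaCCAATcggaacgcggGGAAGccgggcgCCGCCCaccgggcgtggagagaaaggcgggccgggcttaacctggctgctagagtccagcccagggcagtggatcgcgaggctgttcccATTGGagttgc
Cldn5 had 2 CCAAT matches, 118 and 88 bases before the start, and F11r had 4, of which those nearest before the start lay 158 and 77 bases upstream. Of the 32851 promoters in the table, 37.4% held this motif. Each gene had 1 GC box, 45 bases upstream in Cldn5 and 50 in F11r, a motif in 35.7% of promoters. The ETS core was found 62 bases before the start of F11r and not in the Cldn5 window, against 71.4% of all promoters. None of the matches in these 2 windows overlapped. The cyclic AMP response element, bound by the CREB proteins for which CREB-binding protein (Crebbp) is named, was searched as TGACG and as TGACGTCA, and the GATA factor motif as AGATAA. None of these 3 was in either window, and 20.8%, 1.79% and 11.2% of all promoters held them. The windows were 58.3% and 60.3% G or C, against a median of 52.7%. A match describes letters in the window and shows no binding. In the gene table Icam2 and Pecam1 lie on the same chromosome with 2 protein-coding genes between them.

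All levels are log2 values made by the authors with GCRMA, which estimates background with the base content of the probes, brings arrays to a common scale and combines the probes of a set. They can be compared between arrays for 1 gene, not between genes. The array medians over 3109 probe sets lay between 7.98 and 8.43. Crebbp itself stood between 8.45 and 8.59 in wild type and between 7.67 and 7.88 in Crebbp+/- stroma, so these labels have a check. Ep300 is not analysed here. The Y-linked Eif2s3y was low on Crebbp+/- 1 and 3 (2.73 and 2.69) and at 8.41 or more on the other 10 arrays. Crebbp+/- 4 and wild-type 1 stood apart from the other arrays of their genotypes in endothelial genes. They are therefore named beside the results.

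The core genes of the endothelial contact were higher in Crebbp+/- stroma. In bulk RNA such as this, more endothelial cells and more RNA of these genes per cell cannot be told apart. Pecam1 encodes CD31, an immunoglobulin-type molecule that binds itself between neighbouring cells. Its log2 level was 9.59, 8.59, 8.85 and 8.66 on wild-type arrays 1 to 4, 11.51, 11.17, 11.31 and 9.62 in Crebbp+/-, and 8.28, 8.77, 8.82 and 8.11 in Ep300+/-. All 4 Crebbp+/- arrays lay above the other 8, but Crebbp+/- 4 exceeded wild-type 1 by only 0.037. Cdh5 encodes VE-cadherin, the calcium-dependent adhesion molecule of endothelial adherens junctions. It stood at 8.91, 7.95, 7.98 and 8.02 in wild type, 10.78, 10.58, 10.82 and 9.04 in Crebbp+/-, and 7.66, 8.20, 8.78 and 7.59 in Ep300+/- stroma. Again the Crebbp+/- arrays did not overlap with the rest, and the margin over wild-type 1 was 0.13.

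The tight junction genes differed in how far they moved. Cldn5 encodes claudin-5, the main claudin of endothelial tight junctions. Its log2 level was 8.0, 4.98, 5.82 and 5.26 in wild type, 9.37, 8.90, 9.44 and 6.22 in Crebbp+/-, and 5.41, 4.93, 5.80 and 4.19 in Ep300+/-. Crebbp+/- 1, 2 and 3 were the highest of all, whereas Crebbp+/- 4 lay below wild-type 1, so wild type and Crebbp+/- overlapped. F11r encodes JAM-A, a junctional molecule that binds scaffold proteins of the tight junction. It stood at 7.10, 7.11, 6.77 and 7.45 in wild type, 8.82, 8.72, 8.62 and 7.73 in Crebbp+/-, and 7.36, 7.43, 7.43 and 7.35 in Ep300+/-. Wild-type 1 was not raised in F11r, unlike in the other 5 genes, and the lowest Crebbp+/- array exceeded the highest wild-type array by 0.28. F11r also had the narrowest range over the 12 arrays, 2.05 log2 units, against 5.24 for Cldn5, the widest.

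Esam and Icam2 serve contact with blood cells as well as between endothelial cells. Esam encodes an immunoglobulin-type molecule of endothelial tight junctions and platelets. Its log2 level was 8.42, 7.44, 7.56 and 7.87 in wild type, 10.18, 9.79, 10.13 and 8.51 in Crebbp+/-, and 7.17, 7.80, 7.90 and 7.20 in Ep300+/-. The groups of Crebbp+/- and wild type were parted by 0.084 between Crebbp+/- 4 and wild-type 1. Icam2 encodes a ligand of the leukocyte integrin LFA-1. It stood at 6.38, 5.14, 3.72 and 4.52 in wild type, 8.16, 8.09, 7.60 and 5.61 in Crebbp+/-, and 4.55, 4.47, 5.48 and 3.28 in Ep300+/-. Crebbp+/- 4 lay below wild-type 1 here too. Icam2 was under 5 on 5 arrays and Cldn5 on 3, values that may be near background, so the sizes of their differences are uncertain.

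**Figure D1:**
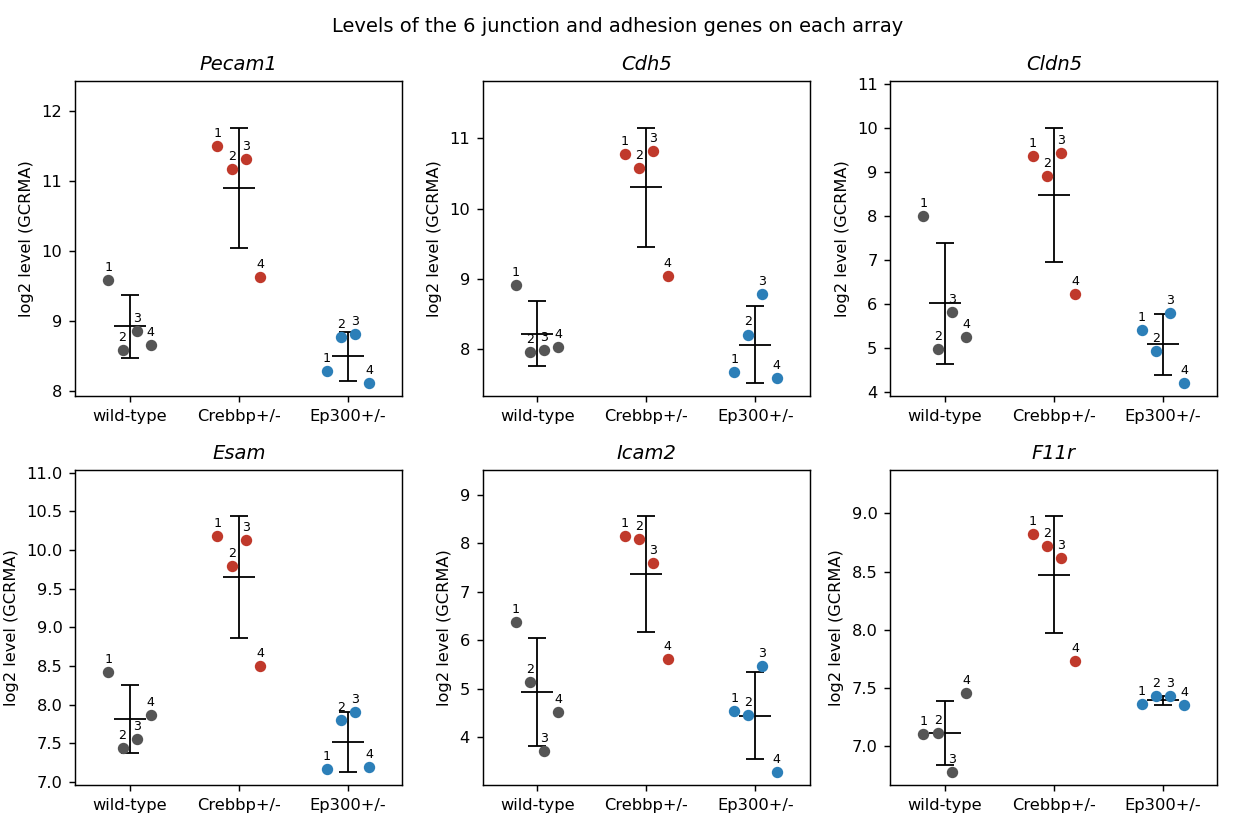
Log2 level (GCRMA) of each of the 6 genes on every array, with the replicate number beside each point and the mean ± SD of 4 arrays per genotype in black; the vertical axes differ and do not start at 0. Crebbp+/- 1, 2 and 3 are the 3 highest arrays in every panel, and Crebbp+/- 4 lies lowest of its genotype.

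The order of the genotypes was the same for 5 genes, with Crebbp+/- highest, wild type next and Ep300+/- lowest, while F11r was lowest in wild type. The means in Crebbp+/-, wild type and Ep300+/- were 10.90 ± 0.86, 8.92 ± 0.46 and 8.49 ± 0.35 for Pecam1 (SD, n = 4 each), and 10.31 ± 0.85, 8.22 ± 0.46 and 8.06 ± 0.55 for Cdh5. For Cldn5 they were 8.48 ± 1.53, 6.01 ± 1.37 and 5.08 ± 0.69, and for Esam 9.65 ± 0.78, 7.82 ± 0.44 and 7.52 ± 0.39. Icam2 had 7.36 ± 1.20, 4.94 ± 1.12 and 4.44 ± 0.90. For F11r the means were 8.47 ± 0.50 in Crebbp+/-, 7.39 ± 0.039 in Ep300+/- and 7.11 ± 0.28 in wild type. The wild-type and Ep300+/- ranges overlapped for all 6 genes, so these neighbours in the order did not differ beyond their spread. Crebbp+/- 1, 2 and 3 each lay above the other 9 arrays in 6 of 6 genes, against 11.2% of all probe sets. Wild-type 1 was the highest wild-type array in 5 of 6 (37.9% of all probe sets) and Crebbp+/- 4 the lowest of its genotype in 6 of 6 (30.3%). Replicate 4 stood well below the rest of Crebbp+/-: the lowest of the other 3 arrays exceeded it by 0.89 (F11r) to 2.68 (Cldn5), while those 3 differed among themselves by 0.20 to 0.56.

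In Crebbp+/- against wild-type stroma all 6 genes were higher in the mean. Cldn5 and Icam2 had log2 fold changes of 2.47 (SE 0.77) and 2.43 (SE 0.67), sizes that are uncertain because some wild-type values may be near background. Every probe set of the table had at least 3 arrays at a level of 100 or more before log2. Cldn5 and Icam2 met that bound only through Crebbp+/- arrays, so their direction is in part fixed by it. Cdh5 and Pecam1 were 4.26-fold and 3.95-fold higher (log2 fold changes 2.09, SE 0.43, and 1.98, SE 0.40). Esam was 3.55-fold (1.83, SE 0.39) and F11r 2.57-fold higher (1.36, SE 0.27). The median of the 6 was 2.04, against 0.24 over all probe sets, so the table as a whole was shifted slightly upward in Crebbp+/- stroma, and with quantile normalization the median of the 6 was 1.84. In the limma fit 4 of the 6, Pecam1, Cdh5, Esam and F11r, had an adjusted p under 0.05, the threshold for a call. Over all probe sets 5.02% were called higher, and the same 4 genes had groups that did not overlap, as did 10.4% of all probe sets. Since the genes were chosen with this difference in view, nothing is read from these shares. When same-numbered arrays were blocked all 6 were called, against 17.5% of all probe sets called higher.

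The calls depended on which arrays were in the fit, and the size of the Cldn5 difference varied with them too. None of the 6 was called without wild-type 2, 3 or 4 or without Crebbp+/- 1, 2 or 3, and the total over all probe sets was then 30, 48, 5, 9, 7 and 55 in place of 192. All 6 were called without wild-type 1 and without Crebbp+/- 4, and 5 without Ep300+/- 3 or 4, with totals of 160, 383, 284 and 223. The log2 fold change of Cldn5 was 3.22 without Crebbp+/- 4, 3.13 without wild-type 1 and 2.12 without wild-type 2. The median of the 6 log2 fold changes lay between 1.86 (without Crebbp+/- 1) and 2.46 (without Crebbp+/- 4). On Crebbp+/- 2 and 4, the arrays of this genotype with a high Eif2s3y level, the log2 fold changes over wild type were 1.60 for Cdh5, 1.48 for Pecam1, 1.32 for Esam, 1.12 for F11r, 1.91 for Icam2 and 1.55 for Cldn5, and none of the 6 was called. With the Eif2s3y level as a covariate the median was 1.46, the log2 fold change of F11r was 0.998, and again none was called. Totals over all probe sets are not given for these settings, so no loss of calls particular to the 6 genes is read from them. The labels give no sex, and its part in the differences was not tested.

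In Ep300+/- against wild-type stroma the 6 genes stayed within the spread of the arrays. The log2 fold changes were -0.93 (SE 0.77) for Cldn5, -0.49 (SE 0.67) for Icam2, -0.43 (SE 0.40) for Pecam1, -0.30 (SE 0.39) for Esam, -0.16 (SE 0.43) for Cdh5 and 0.28 (SE 0.27) for F11r. By limma 0 of the 6 were called and 0 had an unadjusted p under 0.05, beside 0% called over all probe sets and 126 with an unadjusted p under 0.05. With the block 0 of the 6 and 0.0322% of all probe sets were called. Wild-type 1 carried much of the negative sign, and Ep300+/- 4 a smaller part. Without Ep300+/- 4 the median moved from -0.37 to -0.15. Without wild-type 1 the log2 fold change was -0.27 for Cldn5, -0.014 for Icam2, -0.21 for Pecam1, -0.10 for Esam and 0.073 for Cdh5, and the median moved from -0.37 to -0.059. This comparison and the preceding one share their wild-type arrays.

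When the heterozygotes were compared directly, all 6 genes were higher in Crebbp+/- than in Ep300+/- stroma in the mean. The log2 fold changes were 3.40 (SE 0.77) for Cldn5 and 2.92 (SE 0.67) for Icam2, again with some low values near background, and Cldn5 reached 4.15 without Crebbp+/- 4. Here too the direction of Cldn5 and Icam2 is in part fixed by the bound on the table. Pecam1 was 5.31-fold higher (2.41, SE 0.40). Cdh5 was 4.75-fold (2.25, SE 0.43), Esam 4.39-fold (2.13, SE 0.39) and F11r 2.12-fold higher (1.08, SE 0.27). Here all 4 Crebbp+/- arrays lay above all 4 Ep300+/- arrays for 6 of 6 genes, with the least margin in Icam2 (0.13) and the largest in Pecam1 (0.81). Such a separation was seen in 9.13% of all probe sets. All 6 were called in the limma fit, where 4.89% of all probe sets were called higher, and nothing is read from these shares either. The block gave the same 6 calls, against 19.1% of all probe sets called higher. The count was 0 without Crebbp+/- 1 or Ep300+/- 1, 2 without Crebbp+/- 2, and 3 without Crebbp+/- 3, Ep300+/- 2 or Ep300+/- 4. Over all probe sets the total was then 9, 2, 38, 132, 121 and 59 in that order, in place of 199. The member count was 5 without wild-type 2 or 4, with totals of 152 and 134. Without any wild-type array in the model it was 4, and Icam2 and F11r were not called. With the arrays of high Eif2s3y level only, or with that level as a covariate, none was called, and the median log2 fold change of 2.33 became 1.83 and 1.86. No total over all probe sets is given for either.

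**Figure D2:**
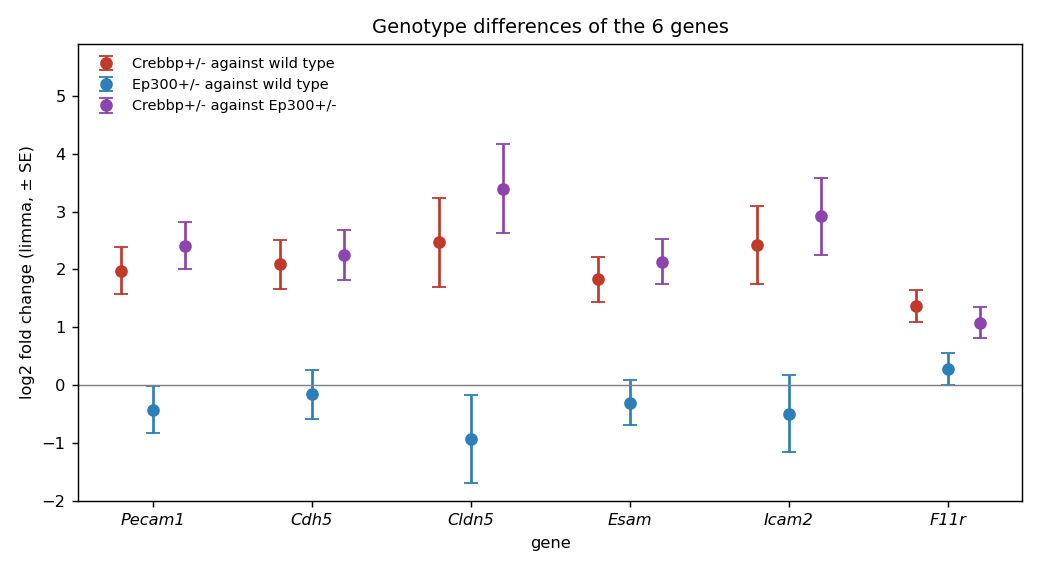
Log2 fold change of each gene with limma's standard error as bars, for Crebbp+/- against wild type (red), Ep300+/- against wild type (blue) and Crebbp+/- against Ep300+/- (purple), 4 arrays per genotype. The red points lie between 1.36 and 2.47, the purple between 1.08 and 3.40, and the blue between -0.93 and 0.28.

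Same-numbered arrays of Crebbp+/- and wild type deviated together across all probe sets, so the differences were also read pair by pair. The labels do not say that the numbers are pairs, so the pairing is an assumption. All 6 genes were higher in Crebbp+/- in each of the 4 pairs. The differences ran from 1.37 to 1.92 log2 units in pair 1, where wild-type 1 was high, from 1.61 to 3.92 in pair 2 and from 1.84 to 3.88 in pair 3. In pair 4 they were smaller, from 0.28 (F11r) to 1.09 (Icam2). Between Crebbp+/- and Ep300+/- the 6 genes were likewise higher in each pair, by 0.38 (F11r, pair 4) to 3.96 (Cldn5, pair 2). These arrays did not overlap for any of the 6 genes, so the sign would be the same under any pairing. The same holds for Pecam1, Cdh5, Esam and F11r against wild type, and the signs by pair add no evidence for them. For Ep300+/- minus wild type the number of genes with a positive difference was 1, 4, 4 and 0 in pairs 1 to 4.

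Among themselves Pecam1, Cdh5 and Esam kept nearly fixed distances. Over the 12 arrays the difference between Pecam1 and Esam had an SD of 0.18, that between Cdh5 and Esam 0.20 and that between Pecam1 and Cdh5 0.20. Distances that involved Cldn5, Icam2 or F11r varied more, from 0.57 (Esam and F11r) to 1.40 (Cldn5 and F11r). Pearson correlations over the 15 pairs of genes ran from 0.787 (Cldn5 and F11r) to 0.993 (Pecam1 and Esam), with a median of 0.942. After the mean of each genotype was removed they ran from 0.554 to 0.967. These correlations are a description: the 12 values share arrays and normalization, and they fall into 3 high arrays and 9 lower ones.

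By the same measure, and with members left out, the 10 genes most like the mean of the 6 over the 12 arrays were Plekhg1 (r = 0.988), Egfl7 (0.986), Adgrf5 (0.986), Tie1 (0.986), Trp53i11 (0.985), Adgrl4 (0.984), Robo4 (0.984), Gimap4 (0.983), Apln (0.983) and Bcl6b (0.983). Egfl7 encodes a secreted protein of endothelial cells, Tie1 a receptor of endothelium, Robo4 a guidance receptor of vessels, and Apln the peptide apelin. With genotype means removed their r ran down to 0.932 (Bcl6b). For single genes the closest were Egfl7 for Pecam1 (0.995) and for Esam (0.994), Gimap6 for Cdh5 (0.991), Trp53i11 for Cldn5 (0.990), and S1pr1, a receptor for sphingosine-1-phosphate, for Icam2 (0.984). F11r was closest to Lrrc8c, at a lower 0.957, followed by Ptprb (0.953) and Myct1 (0.948).

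Genes that work with these 6 were taken from lists. Of 75 listed partners in tight junctions, adherens junctions and leukocyte adhesion, 21 were measured, and a gene with several probe sets is given by the brightest one. In Crebbp+/- against wild type 4 rose and 17 did not pass the limma test, beside 5.02% of all probe sets called higher. The median log2 fold change of the 21 was 0.84, against 0.24 over all probe sets. Ptprb, the vascular phosphatase VE-PTP that associates with VE-cadherin, rose most, from 6.94 ± 0.42 to 9.09 ± 0.82 (SD, n = 4 each, log2 fold change 2.16, SE 0.38, limma adjusted p = 0.0129). Its second probe set gave 2.003. Tjp1 encodes ZO-1, the scaffold that binds claudins and JAM-A, and rose by 1.14 (SE 0.29, limma adjusted p = 0.0372), from 9.15 ± 0.30 to 10.29 ± 0.41. Selp, which encodes P-selectin, was higher by 1.54 log2 units (SE 0.35) with a limma adjusted p of 0.0251. Mcam, which encodes the adhesion molecule CD146, was higher by 1.64 (SE 0.37), at a limma adjusted p of 0.0261.

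Other partners differed by amounts that did not pass. Among tight junction genes the log2 fold changes in Crebbp+/- were 0.84 for the scaffold Mpdz, 0.68 for the scaffold Magi3 and -0.39 for Cgnl1, which encodes paracingulin. Among adherens junction genes Vcl (vinculin) stood at 1.13, Ptprj at 0.65, Ctnnb1 (beta-catenin) at 0.50, Ptprm at 0.30 and Cdh2 (N-cadherin) at -0.39. Itgb3, the beta-3 integrin subunit, stood at 1.20 (limma adjusted p = 0.0627), Pvr at 0.95, Alcam at -0.92 and Cd34, a sialomucin of endothelial and blood progenitor cells, at 0.85. Itgb3 met the bound on the table only with Crebbp+/- arrays, so its direction is in part fixed by it. For Alcam, with 5 probe sets, a probe set of lower mean passed (-1.32, limma adjusted p = 0.0275), and the others lay between -0.71 and 0.19. In the blocked fit, which called 17.5% of all probe sets higher, 10 of the 21 were higher and 1 was lower. The 4 calls became 1 without wild-type 2 or 3 or Crebbp+/- 3, 0 without wild-type 4 or Crebbp+/- 1 or 2, and 8 without Crebbp+/- 4. Over all probe sets the total went from 192 to 30, 48, 55, 5, 9, 7 and 383 in that order. With the Eif2s3y level as a covariate, or only its high arrays, 0 of the 21 were called, and no total over all probe sets is given for either.

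In Ep300+/- against wild type 0 of the 21 partners were called by limma, and 2 had an unadjusted p under 0.05. The median was -0.048, and Cgnl1 had the smallest p in the tight junction list at a log2 fold change of -0.85 (limma adjusted p = 0.568). In Crebbp+/- against Ep300+/-, where 4.89% of all probe sets were called higher, 3 partners rose: Ptprb (1.83, limma adjusted p = 0.0189), Mcam (1.56, limma adjusted p = 0.0301) and Itgb3 (1.99, limma adjusted p = 0.0127). Itgb3 stood at 5.53 or less in Ep300+/- stroma and could enter the table only with Crebbp+/- arrays. Its direction is in part fixed by that bound, and its call is no independent evidence. Selp was just outside the threshold in this comparison, at 1.25 (limma adjusted p = 0.0502). Cd34 had a log2 fold change of 1.88 there and did not pass (limma adjusted p = 0.112), but was among the genes called with the replicate block (limma adjusted p = 0.0101). With that block 11 were higher and 2 lower, beside 19.1% of all probe sets called higher. The 3 calls became 0 without Crebbp+/- 1 or Ep300+/- 1, 1 without Crebbp+/- 2 or Ep300+/- 4, 8 without Crebbp+/- 4 and 6 without Ep300+/- 3. Over all probe sets the total went from 199 to 9, 2, 38, 59, 374 and 322 in that order. With either treatment of Eif2s3y 0 of the 21 partners were called, and no total over all probe sets is given for it.

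**Figure D3:**
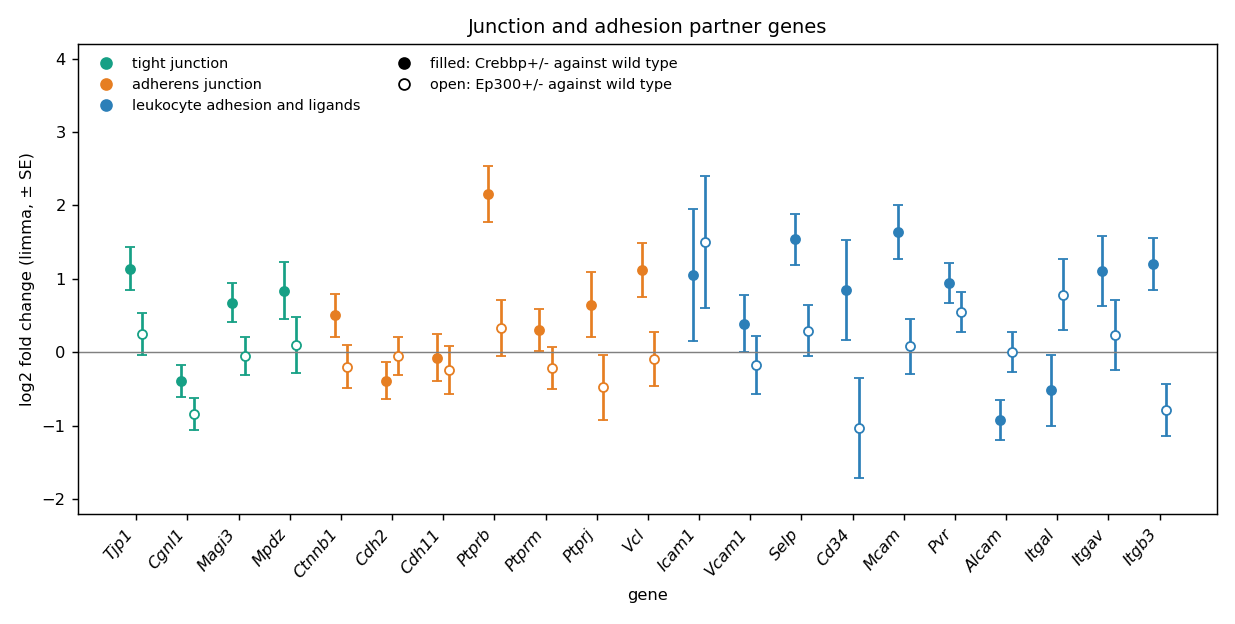
Log2 fold change with limma's standard error for the 21 measured partner genes, filled for Crebbp+/- and open for Ep300+/- against wild type, coloured by list. Ptprb reaches 2.16 in Crebbp+/- stroma, above Mcam (1.64) and Selp (1.54).

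Other endothelial markers were also higher in Crebbp+/- stroma. Of 32 listed, 19 were measured. In Crebbp+/- against wild type 9 rose and 10 did not pass the limma test, with all 19 log2 fold changes positive (0.76 to 3.66, median 1.72). Over all probe sets 5.02% were called higher. Every probe set of the table reached a level of 100 (before log2) on at least 3 arrays. Erg, Kdr and Myct1, for instance, did so on no wild-type or Ep300+/- array. They could enter the table only through Crebbp+/- arrays, so their higher levels there are in part fixed by that bound and are no independent evidence. The 9 were Ecscr (1.69, SE 0.24, limma adjusted p = 0.00827), Emcn (1.44, SE 0.26, limma adjusted p = 0.0129), Tie1 (2.32), Erg (2.53), Adgrl4 (2.28), Robo4 (2.07), Mmrn2 (1.997), Myct1 (1.93) and Egfl7 (1.72). In Crebbp+/- against Ep300+/-, with 4.89% of all probe sets called higher, 13 rose, the same 9 with Kdr, the main receptor for vascular endothelial growth factor (2.10), the sinusoidal scavenger receptor Stab2 (2.43), Plvap (1.62) and Eng (0.96). In Ep300+/- against wild type the limma test called 0 of 19, 0 had an unadjusted p under 0.05, and the median was -0.36. With the block 17 were higher against wild type (17.5% of all probe sets) and 18 against Ep300+/- (19.1%). The count of 9 became 14 without wild-type 1, 3 without wild-type 2 or 3, 1 without wild-type 4 or Crebbp+/- 1 or 2, 5 without Crebbp+/- 3 and 19 without Crebbp+/- 4. The count of 13 became 1 without Crebbp+/- 1, 5 without Crebbp+/- 2 or Ep300+/- 4, 8 without Crebbp+/- 3, 19 without Crebbp+/- 4 and 0 without Ep300+/- 1. Over all probe sets the totals moved too, from 192 down to 5 (without wild-type 4) and up to 383 (without Crebbp+/- 4) against wild type. Against Ep300+/- they moved from 199 down to 2 (without Ep300+/- 1) and up to 374 (without Crebbp+/- 4). Both endothelial counts were 0 with either treatment of Eif2s3y, for which no total over all probe sets is given.

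The mean level of these 19 markers followed the 6 genes array by array. It was 8.0 on wild-type 1 and 6.77 to 6.83 on the other wild-type arrays, 7.47 on Crebbp+/- 4 and 9.24 to 9.54 on the other Crebbp+/- arrays, and 6.32 to 7.26 in Ep300+/-. The means of the 6 genes on the same arrays were 8.07, 6.78 to 6.96, 7.79, 9.54 to 9.80, and 6.29 to 7.37. 

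Markers of other cells that could carry these genes were compared too. Megakaryocyte and platelet markers had 2 of 12 measured, the platelet chemokine Pf4 (log2 fold change 0.32 in Crebbp+/- against wild type) and Treml1 (-1.03), neither called, and their mean ran from 9.04 to 10.12 in wild type, 8.73 to 9.69 in Crebbp+/- and 9.32 to 10.12 in Ep300+/-. The leukocyte list, with 4 of 16 measured, ran from 11.52 to 11.70, 11.95 to 12.65 and 11.89 to 12.47 in that order. Its 3 genes of highest mean were Cd163, which rose in Crebbp+/- (1.18, limma adjusted p = 0.0228), Laptm5 (0.22) and Cd14 (0.69). Of 9 pericyte markers 2 were measured, and their mean ran from 9.14 to 10.54, 10.31 to 11.81 and 8.85 to 10.20, with Rgs5 higher in Crebbp+/- (2.57, limma adjusted p = 0.0267) and Notch3 at 0.93. The other probe sets of Rgs5, of lower mean, gave larger log2 fold changes of 3.59, 3.96 and 4.21, each called. Reticular stroma markers, 8 of 12 measured, ran from 9.39 to 10.48, 9.40 to 10.50 and 8.75 to 10.20. Cxcl12, the chemokine that retains stem cells, had a log2 fold change of 0.25, Kitl 0.022 and Col3a1 0.68, none called. No epithelial marker was measured. The part of these cell types in the differences of the 6 genes was not tested.

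**Figure D4:**
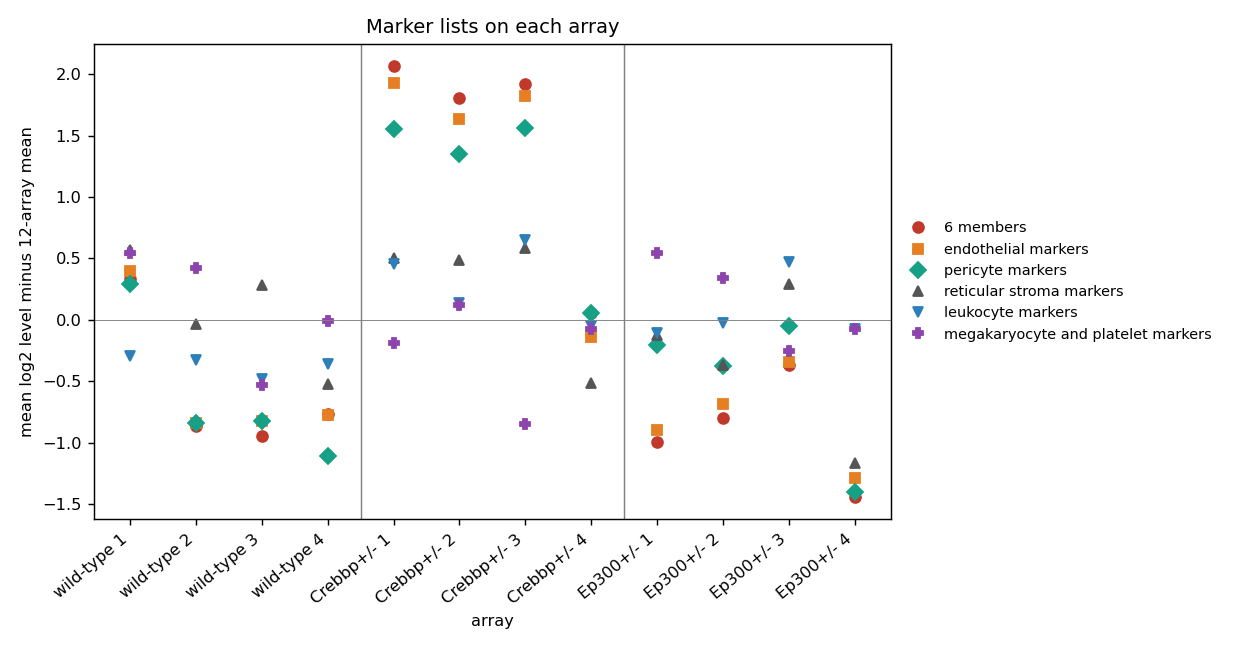
Mean log2 level of each marker list on each array, minus its mean over the 12 arrays; points are arrays and vertical lines part the genotypes. The 6 genes and the 19 endothelial markers lie together on every array, with Crebbp+/- 1, 2 and 3 on top; the pericyte markers are high on the same 3 arrays and the platelet markers are not.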

How the data were processed

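Total RNA from 12 stroma cultures was labelled with biotin and hybridized to Affymetrix arrays. Per the submitters' processing notes the authors ran GCRMA, and the deposited values are its log2 levels. No version of it is given in the sources that were used. The deposited table held 3127 probe sets, of which 18 controls were removed. Among the other 3109 the smallest interquartile range was 0.5001, so flat genes are outside the table. Each also had at least 3 arrays at a level of 100 or more before log2. A gene low in wild-type and Ep300+/- stroma is therefore in the table only if it was high on Crebbp+/- arrays. Of the 6 genes, Icam2 reached that level on Crebbp+/- arrays only, and Cldn5 on Crebbp+/- 1, 2 and 3 and otherwise only on wild-type 1. Icam2 and Cldn5 are therefore in the table only through Crebbp+/- arrays, and their higher levels there are in part fixed by that bound. Genes were named from the platform annotation. All 6 members matched the mouse gene table of GRCm38.p6 by gene ID.

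No further normalization was applied. One limma 3.58.1 fit in R 4.3.3 (lmFit, eBayes) covered all 3109 probe sets and 12 arrays with 1 mean per genotype. P-values are two-sided and adjusted by Benjamini-Hochberg across the table, and calls had an adjusted p under 0.05. On simulated data of the Crebbp+/- against wild type comparison (3109 probe sets) 24% of changes of 1 log2 unit and 72% of changes of 2 were called, with 8 false calls among 104. Promoters came from the RefSeq table.

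The members, lists and tests were chosen with earlier results of these data known. Named were all members, every called gene and up to 6 genes of smallest p in the partner and endothelial lists, the 3 genes of highest mean in the other marker lists, and the 10 genes most like the mean of the members. Same-numbered arrays of Crebbp+/- and wild type deviated together (r 0.448 to 0.603), as did those of Crebbp+/- and Ep300+/- (0.294 to 0.513). The numbers were therefore taken as pairs there, although the labels give no pairing. For Ep300+/- and wild type r was 0.059 in pair 3. The alternatives were centring on array medians, quantile normalization, removal of low probe sets (kept with at least 4 arrays at 7 or more), eBayes with trend and robust, 2 genotypes at a time, the replicate block, the Eif2s3y level, averaging all probe sets of 1 gene and leaving out arrays.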

Additional observations from a re-analysis of the deposited data

Results flagged for a closer look

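Within a genotype, 3 of 18 groups of 4 arrays held a value of a member gene far from the other 3. For a single group, chance gives this about 1 time in 20. The 6 genes share their arrays and move together, so the 18 groups are not independent and no excess over chance is read from the count. Cdh5 on wild-type 1 was 8.91, with the next array at 8.02. On Crebbp+/- 4 Cdh5 was 9.04, with the next array at 10.58, and Cldn5 was 6.22, with the next at 8.90. The mean of the 6 genes was set apart in the same way on wild-type 1 (8.07, next 6.96) and on Crebbp+/- 4 (7.79, next 9.54).

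Marker lists stood apart too, among 21 groups of 4 arrays examined for list means. The endothelial list did so on wild-type 1 and Crebbp+/- 4, the pericyte and reticular stroma lists on Crebbp+/- 4 only, and the leukocyte list on Ep300+/- 3. The endothelial mean was 8.0 on wild-type 1 (next 6.83) and 7.47 on Crebbp+/- 4 (next 9.24). On Crebbp+/- 4 the pericyte mean, over 2 genes, was 10.31 (next 11.60) and the reticular stroma mean 9.40 (next 10.40), so the low array was low in other stromal genes too. The leukocyte mean was 12.47 on Ep300+/- 3 (next 11.98).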

How the results depend on the processing

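Log2 fold changes of the 6 genes kept their sign in all 141 values from alternatives with all arrays or split by Eif2s3y. With 1 array left out, the sign held in 72 of 72 for each comparison with Crebbp+/- stroma. It held in 71 of 72 for Ep300+/- against wild type, the exception being Cdh5 without wild-type 1 (0.073). Many of these values could not change sign, because the setting left the difference of genotype means as it was. The replicate block and fits of the compared genotypes alone were such settings. So were those in which only the eBayes step or the choice of probe sets differed. Leaving out an array of the genotype outside the comparison had no effect on the fold changes either. The counts therefore overstate how far the signs were tested. The filter on low values removed Icam2. With 1 array left out, member calls ranged from 0 to 6 in both comparisons with Crebbp+/- stroma, partner calls from 0 to 8 in both, and endothelial marker calls from 1 to 19 against wild type and from 0 to 19 against Ep300+/-. Calls over all probe sets ranged from 5 to 383 against wild type and from 2 to 374 against Ep300+/-. Median member fold changes ranged from 1.86 to 2.46, 2.15 to 2.75 and, for Ep300+/- against wild type, -0.48 to -0.059.

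In a fit of 2 genotypes at a time, member calls were 4 against wild type and 4 in place of 6 against Ep300+/-, partner calls were 2 against wild type and 1 against Ep300+/-, and endothelial calls against Ep300+/- were 7. With the replicate number as a block, partner calls were 11 against wild type and 13 against Ep300+/-, endothelial calls against wild type were 17, and no call among the members was lost. Calls in both comparisons with Crebbp+/- stroma were 0 for members, partners and endothelial markers with the Eif2s3y level as a covariate. They were 0 again with only its high arrays, an alternative that leaves 2 Crebbp+/- arrays. No total over all probe sets is given for these alternatives, so no loss of calls particular to these genes is read from them. Without Crebbp+/- 4 and wild-type 1 together, chosen after the data were seen, endothelial calls against wild type were 19, partner calls against Ep300+/- were 6, and Cldn5 had a log2 fold change of 3.88 against wild type. The number of arrays limits the precision, and Cldn5 and Icam2 reach low signal in wild type and Ep300+/-.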
